A study of Mus musculus with 22 samples.

Results

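The cytoplasmic ribosomal protein genes were followed in fully grown mouse oocytes with defects in RNA interference (RNAi), in the PIWI-interacting RNA (piRNA) pathway, or in both. A gene of the table was taken as a member when GENCODE M21 called it protein coding and its symbol matched a naming pattern. The symbol had to begin with Rpl or Rps, followed by the number or letters of a ribosomal protein. For some genes a paralogue ending (l, l1 or x) came after these. Symbols of named pseudogenes (-ps) were left out. This gave 85 of the 52636 genes in the table, with 52 genes of the large subunit, 32 of the small subunit and Rps6kl1. Rps6kl1 encodes a kinase-like protein that only shares the naming pattern, and it lay between 0.025 and 0.43 counts scaled to a common library total (CPM) in all libraries. Another 6 genes matched the pattern but are annotated as pseudogenes and were not members. Of the 85 members, 83 passed the filter on low counts, and the 2 that did not were Rps6kl1 and Rpl3l.

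Germinal vesicle (GV) oocytes of C57BL/6 mice were sequenced in 22 libraries, each from a small pool of oocytes, after amplification with a kit that does not keep the strand. The single-end run held 11 libraries: Dicer WT/WT (WT, n = 3), Dicer ΔMT/WT (n = 1), Dicer ΔMT/ΔMT (n = 4) and Dicer SOM/SOM (n = 3), with no age in the labels. The paired-end run held 11 libraries from mice of 10 to 40 weeks that all carried at least 1 Mili DAH allele and at least 1 Dicer SOM allele: 4 controls heterozygous for both (genotype Mili DAH/WT with Dicer SOM/WT), 1 piRNA mutant (Mili DAH/DAH with Dicer SOM/WT), 2 RNAi mutants (Mili DAH/WT with Dicer SOM/SOM) and 4 double mutants (Mili DAH/DAH with Dicer SOM/SOM). Ages in weeks were 36, 38, 10 and 17 in controls and 16 in the piRNA mutant. RNAi mutants were 17 and 13 weeks old, and double mutants 40, 35, 11 and 11. Only controls and double mutants thus held mice of 35 weeks or more, and age is not balanced between RNAi mutants and controls. The labels do not say whether libraries of a group came from separate animals, so p-values measure only the spread between these samples.

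Mouse oocytes make a short, highly active Dicer from a promoter that lies in an MT retrotransposon within the Dicer gene. The ΔMT allele lacks that promoter, although a second retrotransposon further downstream can still give a truncated Dicer. The SOM allele lacks introns 2 to 6 and encodes a full-length Dicer with an HA tag, and its mouse line goes back to a single embryonic stem cell clone. Mili DAH encodes a MILI protein without catalytic activity, and its carriers in the control group are not wild type for either gene. Dicer1 itself, summed over all its isoforms, measured between 1000 and 1056 CPM in WT, between 428 and 536 in Dicer ΔMT/ΔMT and between 42 and 55 in Dicer SOM/SOM. It lay at 502 to 763 CPM in the paired-end controls and at 53 to 62 in the RNAi and double mutants.

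Library totals ran from 6468380 counts (Dicer SOM/SOM replicate 3) to 90713013 in the single-end run and from 22928936 to 43540806 in the paired-end run. A count of 3 therefore stood for at most 0.435 CPM in the first and 0.13 CPM in the second, a limit that covers counting error only. All 12 oocyte markers were above 1 CPM in every library, whereas haemoglobin genes stayed between 0 and 0.15 CPM. The macrophage gene Cd68 was called higher in Dicer SOM/SOM than in WT (16.2 against 2.53 CPM) and in RNAi and double mutants than in controls (5.65 and 7.47 against 1.67 CPM). The B cell gene Ms4a1, the most abundant of the 9 blood markers on average, went the other way and was called lower in Dicer SOM/SOM (30.9 against 48.5 CPM). The 12 granulosa and cumulus markers summed to 85.3 to 130 CPM in the single-end and 95.6 to 156 CPM in the paired-end run. The part of either marker list in the results was not tested. Because whole pools of oocytes were lysed, less RNA per oocyte and fewer oocytes cannot be told apart, and all values are relative to the other transcripts of a library.

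A ribosome is built from a small and a large subunit, each a core of ribosomal RNA dressed with ribosomal proteins, most of which are present once per ribosome while the acidic stalk proteins are repeated. Messages of ribosomal protein genes usually start with a terminal oligopyrimidine (TOP) tract, a C followed by a run of C and T, through which mTOR signalling controls their translation. Growing oocytes pile up ribosomes for the embryo, and the fully grown oocyte no longer transcribes. These short and abundant messages have also been copied back into the genome many times as processed pseudogenes. Transcripts of such copies, when antisense or able to pair with the parent message, are a known source of the endogenous small interfering RNAs (siRNAs) that oocyte Dicer makes.

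The starts of 4 members on which the results turn are shown first because they hold a run of the kind that a TOP tract is made of near the annotated start. The lines run 5′ to 3′ from 5 bases before to 15 bases from the RefSeq start (build GRCm38), and capitals mark a run that begins with C and holds at least 5 C or T.
Rps23 (chr13:90923117-90923136, plus strand): gggcggggCTTCCCgcaatg
Rps6 (chr4:86857353-86857372, minus strand): cgggCCTCTTTTTCgtgacg
Rpl15 (chr14:18270972-18270991, minus strand): gCCTTCTTCCTTTCCTCTgg
Rps15a (chr7:118116133-118116152, minus strand): gccatCTTCCCTCgccggtg
RefSeq promoters were found for 65 of the members. Of their 77 starts, 13 (16.9%) opened exactly on a C followed by 4 bases that are each C or T, read on the strand of the transcript, against 823 of 32851 starts of all genes (2.51%). Within 5 bases of the start the same run was found in 41.6% of the starts of members and in 18.3% of all starts.

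The second set of sequences shows why reads from the coding sequence of several members cannot be told from those of other loci. A copy was counted where the coding sequence of a member was matched at 95% identity or more over at least 50% of its length by a transcript of another gene. The lines give the first 60 coding bases, with the mismatch to the member in capitals. Rps23 spans chr13:90922958-90924950, Rpl15 chr14:18267823-18271067 and Rpl27a chr7:109519147-109522367 (GRCm38, GENCODE). The copies Rps23-ps1, Gm10054, Gm8420 and Gm8451 are pseudogenes, while Gm5148 is an annotated protein-coding gene that runs across Rps23-ps1 on the other strand and holds the coding sequence in reverse complement.
Rps23 and Rps23-ps1 (chr3:37714740-37715164): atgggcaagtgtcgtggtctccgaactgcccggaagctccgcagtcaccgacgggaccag
Gm10054 (chr12:17233612-17234042): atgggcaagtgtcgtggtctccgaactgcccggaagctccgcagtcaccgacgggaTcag
Gm5148 (chr3:37714190-37724490): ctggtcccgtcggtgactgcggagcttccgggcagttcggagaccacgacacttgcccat
Rpl15: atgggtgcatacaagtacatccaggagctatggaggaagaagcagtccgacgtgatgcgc
Gm8420 (chr1:51940664-51941261): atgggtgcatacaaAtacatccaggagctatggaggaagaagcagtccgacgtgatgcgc
Rpl27a and Gm8451 (chr1:127282662-127283108): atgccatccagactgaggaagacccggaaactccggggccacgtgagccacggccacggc

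Copies were the rule for this family. The members had 559 copies in all, 531 of them annotated as pseudogenes, with a median of 4 per member. At least 1 copy was found for 78 members and at least 10 for 17. Rpl21 had the most with 55, followed by Rpl7a with 31, Rpl29 with 29, Rps12 with 22, Rps2 with 21, and Rpl17 and Rpl23a with 20 each. Rps23 had 14 copies, Rps6 had 11 and Rpl15 had 10. No copy was found for 7 members, among them Rpl8, Rps3, Rpl39l and Rps27l.

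The authors counted a read that fits several places as a fraction at each of them and ignored the strand, so a member and its copies share reads. For the median member, 89.6% of all 50-base windows and 82.4% of all 75-base windows of its coding sequence also occurred in another gene. The untranslated parts of the transcripts were not checked. All coding windows of Rps23, Rps6, Rpl15 and Rpl27a were shared at both lengths. Only 8.73% (50 bases) and 5.45% (75 bases) of the windows of Rpl8 were shared, and none of those of Rps3. Exons of 17 members also overlapped another gene, on the opposite strand in 13 cases, and there reads of the pair cannot be told apart either.

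Together the members took 0.2% to 0.285% of all counts in the single-end libraries and 0.269% to 0.4% in the paired-end libraries. With their copies added, the shares were 0.483% to 0.686% and 0.362% to 0.541%. At these levels 82 of 85 members were at or above 1 CPM on average in WT. Per kilobase of exons, the median member stood at 17.2 CPM per kb in WT. Rpl4, which lines the exit tunnel of the large subunit, had the highest level with 147 ± 7.85 CPM per kb (SD, n = 3), followed by Rpl41, which encodes a very short protein, with 117 ± 10.3, and by Rpl10a of the L1 stalk. Rpl3l, the muscle paralogue of Rpl3, was at 0 in 20 of 22 libraries.

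Levels of members with many copies differed between the runs. For the 5 tested members without a copy, the paired-end controls stood at a median of 0.746 times the single-end WT level. The median ratio was 1.19 for 60 members with 1 to 9 copies and 2.76 for the 17 members with at least 10. After the counts of the copies were added to their member, the 3 medians were 0.746, 0.745 and 0.925. Rpl21 for example stood at 18.9 CPM in WT and 88.1 CPM in the controls, but at 207 and 162 CPM with its 55 copies. Rpl7a stood at 25.2 and 116 CPM alone and at 164 and 165 CPM with its copies. The runs also differ in age, genotype and instrument, so no member was tested between runs.

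**Figure D1:**
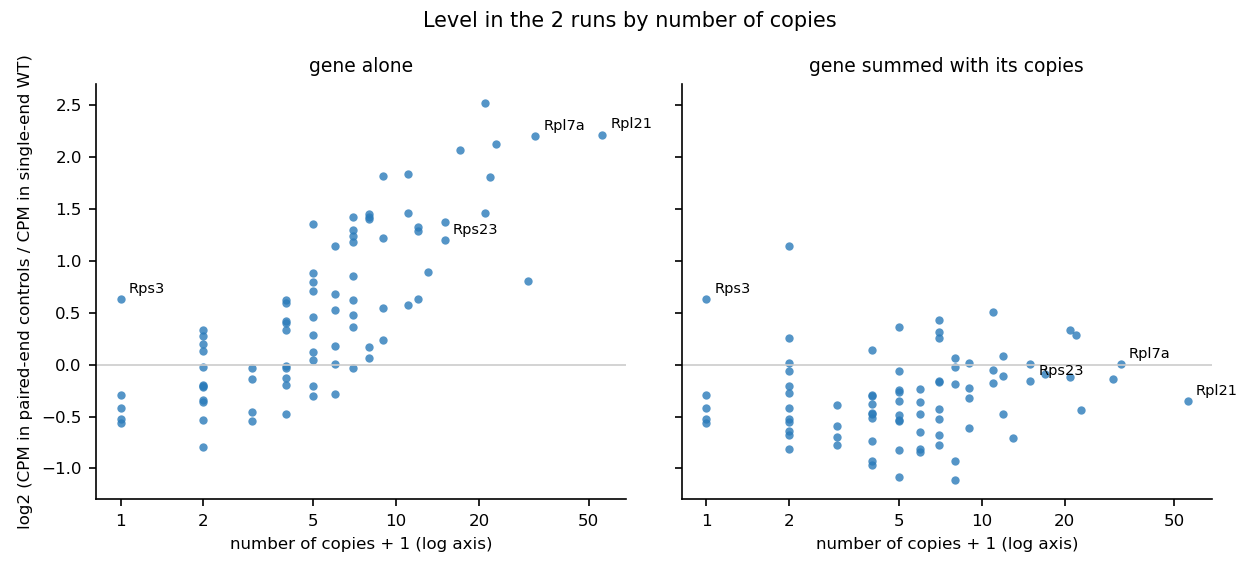
Log2 ratio of the mean level in paired-end controls to that in single-end WT (y axis) against the number of copies plus 1 (x axis, log scale), 1 point per member. The points for a member alone rise with the number of copies, to a median ratio of 2.76 at 10 or more copies, while points with the copies added stay near a median ratio of 0.925 there.

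The next question was which members changed when the oocyte Dicer was lost. Each run was fitted apart with edgeR's quasi-likelihood test on 23151 (single-end) or 20989 (paired-end) genes, and a member was called at a Benjamini-Hochberg adjusted p under 0.05 over all of these. In Dicer ΔMT/ΔMT against WT, 9 of 83 members (10.8%) were called higher and 0 lower, where 8.06% of all tested genes were called higher and 7.3% lower. No member was lower at an unadjusted p of 0.05 either (0 of 83), and DESeq2 called 11 and 0. The median log2 fold change was 0.20 for members and 0.01 for all genes, and 75 of 83 members were positive. In Dicer SOM/SOM against WT, 16 members (19.3%) were called higher and 1 lower, against 14.5% and 14.2% of all genes, with a median of 0.20 against 0.02.

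Few members were called in the paired-end run. In RNAi mutants 2 of 83 were called higher than in controls, where 7.07% of all genes were. The edgeR fit called 0 lower, where 3.64% of all genes were, while 1 was lower at an unadjusted p of 0.05 and DESeq2 called 1. In double mutants 2 were called higher and 1 lower, where 12.3% and 8.83% of all genes were called. The medians of the members were 0.17 and 0.00, beside medians of -0.02 and -0.00 for all genes. Between double and RNAi mutants 0 members were called in either direction by edgeR's quasi-likelihood test or by DESeq2, and 1 passed an unadjusted p of 0.05. Among all genes 0.31% were called higher and 0.00476% lower there.

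The share of members called higher was below that of all genes in the paired-end run and a little above it in the single-end run, where its side depended on the fit. In Dicer ΔMT/ΔMT it was 2.41% against 5.33% of all genes without WT replicate 1, 2.41% against 5.34% without WT replicate 2, and 3.61% against 5.97% with replicate numbers as a block. It was also below that of all genes without Dicer ΔMT/ΔMT replicate 2, 3 or 4. In Dicer SOM/SOM it was 9.64% against 11.1% and 7.23% against 10.7% without WT replicates 1 and 2, and 10.8% against 11.4% with only the compared groups fitted. The 2 single-end comparisons share their WT libraries, as the 2 paired-end comparisons share their controls. The median of the members also moved between libraries of 1 group. Taken against the WT mean, it was -0.04, -0.06 and 0.09 in the WT libraries, 0.11 to 0.30 in the 4 Dicer ΔMT/ΔMT libraries, and 0.09, 0.10 and 0.37 in Dicer SOM/SOM. Without Dicer SOM/SOM replicate 3, the shallowest library, the median was 0.10 and the calls were again 16 and 1. In the controls the medians ran from -0.26 to 0.25, a range that holds both RNAi mutants and the 4 double mutants except for 0.31 in RNAi mutant replicate 1.

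**Figure D2:**
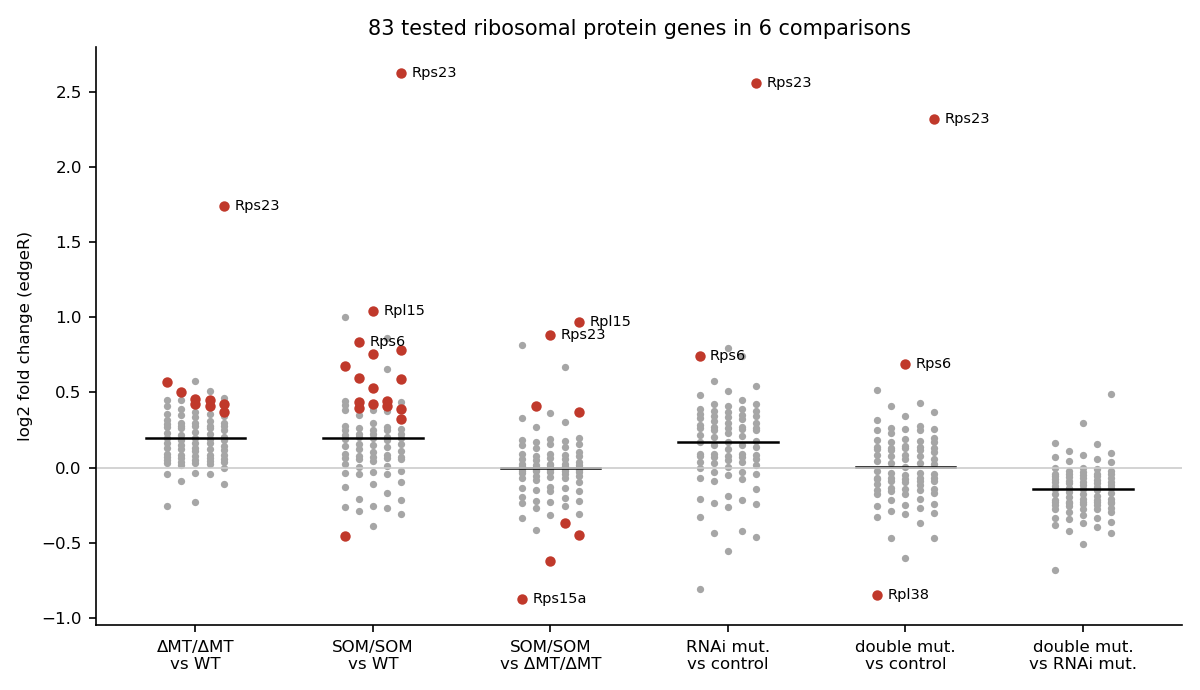
Log2 fold change (y axis) of each of the 83 tested members in the 6 comparisons (x axis). Grey points were not called, red points were called, black lines mark the median and the largest changes are named. Rps23 stands apart at 1.74 and 2.62 in the single-end and at 2.56 and 2.32 in the paired-end comparisons with controls, while the medians lie between -0.14 and 0.20.

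Rps23, which sits in the decoding centre of the small subunit, showed the largest rise of all members in each comparison with controls. It measured 6.75, 4.23 and 6.5 CPM in WT and 6.45 CPM in Dicer ΔMT/WT. It measured 18.6, 19.6, 18.5 and 21.1 CPM in Dicer ΔMT/ΔMT and 34.4, 36.4 and 37.1 CPM in Dicer SOM/SOM. The 3 homozygous groups did not overlap, and the heterozygote lay within WT. The log2 fold change was 1.74 (SE 0.15, adjusted p = 5.5e-05) in Dicer ΔMT/ΔMT and 2.62 (SE 0.17, adjusted p = 1.69e-06) in Dicer SOM/SOM. The direct comparison of the mutants gave 0.88 (SE 0.14, adjusted p = 0.00458), so that Rps23 was higher with the SOM than with the ΔMT allele.

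In the paired-end run Rps23 measured 13.9, 10.3, 13.7 and 15.7 CPM in controls and 8.86 CPM in the piRNA mutant. It measured 87.8 and 69.9 CPM in RNAi mutants and 78.4, 67.5, 77.1 and 44.5 CPM in double mutants. Every library homozygous for Dicer SOM lay above every library that was not, and the piRNA mutant lay below the lowest control. The log2 fold changes were 2.56 (SE 0.22, adjusted p = 5.25e-06) and 2.32 (SE 0.20, adjusted p = 2.21e-06). Both calls, like the 3 in the single-end run, were kept in every setting tried.

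Rps6, the small-subunit protein that S6 kinase phosphorylates, was the other member called in all 4 comparisons with controls, with smaller changes. It measured 21.1, 22.4 and 22.2 CPM in WT, 27.9 to 30.1 CPM in Dicer ΔMT/ΔMT and 37.3 to 40.8 CPM in Dicer SOM/SOM, with no overlap. The heterozygous Dicer ΔMT/WT library stood at 28.3 CPM, above WT and within Dicer ΔMT/ΔMT. The log2 fold changes were 0.42 (SE 0.08, adjusted p = 0.00536), 0.83 (SE 0.09, adjusted p = 4.76e-05) and, between the mutants, 0.41 (SE 0.08, adjusted p = 0.0114).

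The controls of the paired-end run measured 47.8, 50.5, 66.1 and 49.8 CPM of Rps6 and the piRNA mutant 46.4 CPM. The RNAi mutants measured 94.3 and 85.3 CPM and the double mutants 84.2, 82.2, 90.4 and 89.2 CPM. Again no homozygous library reached down to a control, although control replicate 2 stood above the other controls. RNAi mutants gave a log2 fold change of 0.74 (SE 0.15, adjusted p = 0.00561) and double mutants one of 0.69 (SE 0.13, adjusted p = 0.00153). The RNAi call was lost when replicate numbers were used as a block (0.56, adjusted p = 0.145), without RNAi mutant replicate 1 (0.66, adjusted p = 0.0968) and among mice of 10 to 17 weeks (0.62, adjusted p = 0.105). The call in double mutants was also lost among mice of 10 to 17 weeks (0.64, adjusted p = 0.079).

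**Figure D3:**
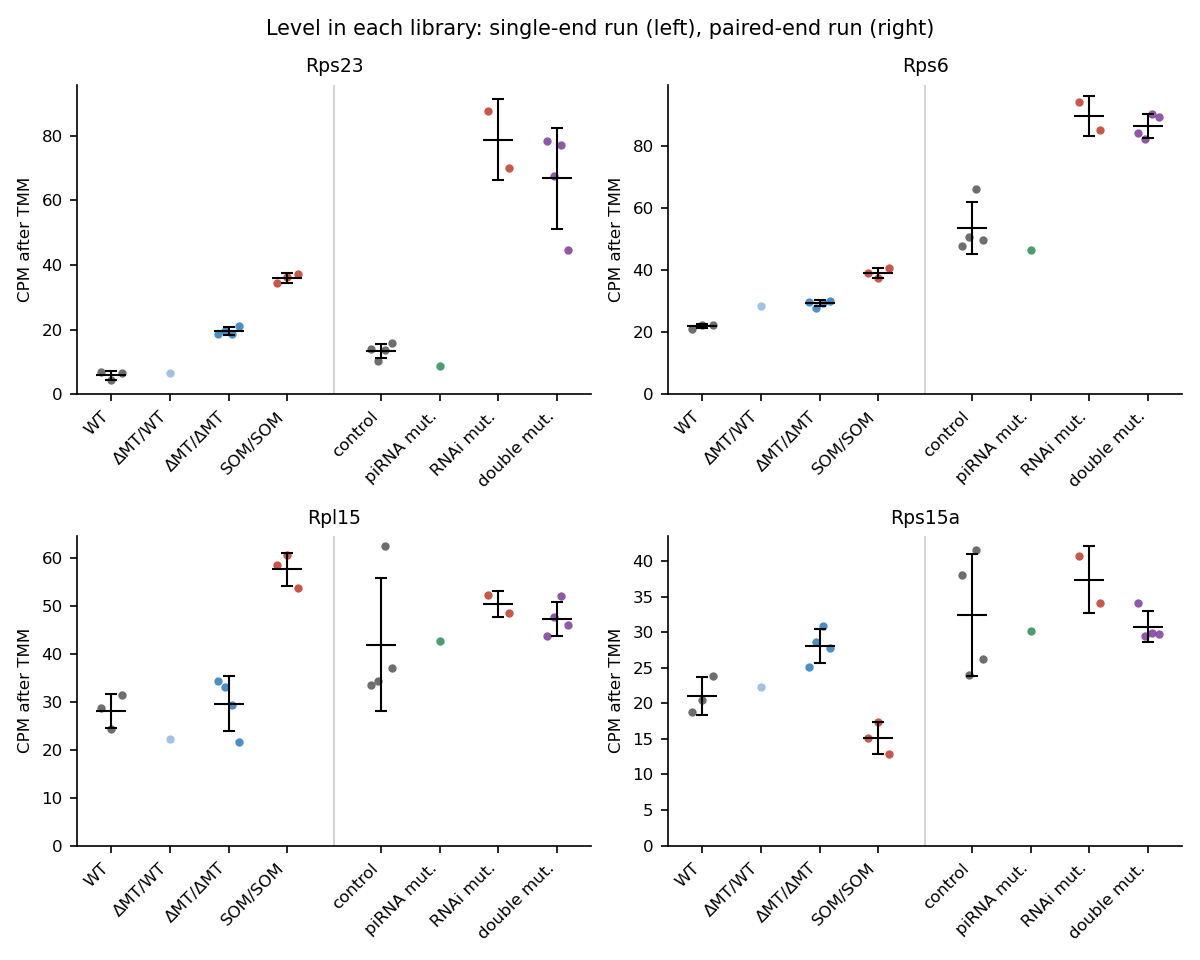
Level of Rps23, Rps6, Rpl15 and Rps15a in CPM (y axis, linear from 0) in each library by group (x axis), with the mean and SD of groups of at least 2 libraries, single-end groups left and paired-end groups right of the line. Rps23 and Rps6 are high in every library homozygous for Dicer ΔMT or SOM, Rpl15 is high in Dicer SOM/SOM (53.7 to 60.5 CPM) and in 1 control (62.5 CPM), and Rps15a is lowest in Dicer SOM/SOM (12.9 to 17.4 CPM).

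Rps23 and Rps6 are among the 5 members that the table of siRNA targets used by the study lists. The others are Rps18 of the small and Rpl7 and Rpl19 of the large subunit. That table was drawn from earlier small RNA data and not from these libraries. Of these 5, 3 were called higher in Dicer ΔMT/ΔMT, 4 in Dicer SOM/SOM, 2 in RNAi mutants and 2 in double mutants, with 0 called lower. Of the 78 other tested members, 6, 12, 0 and 0 were called higher and 0, 1, 0 and 1 lower. For these others the shares called higher were 7.7%, 15.4%, 0% and 0%. Among all genes 8.06%, 14.5%, 7.07% and 12.3% were called higher and 7.3%, 14.2%, 3.64% and 8.83% lower.

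Rps18 stood at 10.7 ± 0.594 CPM in WT (SD, n = 3), 13.9 ± 0.533 in Dicer ΔMT/ΔMT (n = 4) and 14.2 ± 0.788 in Dicer SOM/SOM (n = 3), which gave 0.37 (adjusted p = 0.0224) and then 0.39 (adjusted p = 0.0152). Its RNAi mutants measured 30.5 and 19.6 CPM against 9.84 to 18.7 CPM in controls (0.74, SE 0.28, adjusted p = 0.12). Rpl7 rose in Dicer SOM/SOM from 8.07 ± 1.38 to 11.6 ± 1.23 CPM (0.53, SE 0.14, adjusted p = 0.0182) and gave 0.37 in Dicer ΔMT/ΔMT (adjusted p = 0.0843). Both Rps18 calls were lost without the filter (adjusted p = 0.0552 and 0.0524) and without WT replicate 1 or 2, and that in Dicer SOM/SOM, like that of Rpl7, with only the compared groups (adjusted p = 0.0626 and 0.0642). The Rpl7 call was also lost without WT replicate 2 or Dicer SOM/SOM replicate 1. Rpl19, which bridges the subunits, was not called in any comparison, with values of 0.22, 0.20, 0.15 and -0.14 in the 4 comparisons with controls. The groups of Rpl19 overlapped in the paired-end run, at 13.1 to 17.7 CPM in controls and 12.8 to 14.5 CPM in double mutants.

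Because every window of the Rps23 coding sequence also occurs elsewhere, its copies were read beside it. The sum of Rps23 and its 14 copies was 32.8 ± 6.93 CPM in WT (SD, n = 3), 35.5 in Dicer ΔMT/WT, 97.7 ± 5.05 in Dicer ΔMT/ΔMT (n = 4) and then 187 ± 7.42 in Dicer SOM/SOM (n = 3). Rps23 itself took 17.7% to 19.9% of this sum. In the paired-end run the sum was 29.4 ± 6.26 CPM in controls (n = 4), 22.7 in the piRNA mutant, 144 in RNAi mutants (130 and 158) and 123 ± 18.4 in double mutants (n = 4), of which Rps23 took 39% to 54.6%. Against WT the sum rose by 1.58 on the log2 scale with the ΔMT and by 2.52 with the SOM homozygotes, beside 1.74 and 2.62 for the gene alone.

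All 14 copies of Rps23 were called higher in Dicer SOM/SOM, and 13 were in Dicer ΔMT/ΔMT, where 14.5% and 8.06% of all genes were. In the paired-end run 12 were tested, of which 9 were called higher in RNAi and 10 in double mutants. Among all genes the shares there were 7.07% and 12.3%. Since a member and its copies share reads, these calls are not independent of one another. Gm5148, which carries the coding sequence in reverse complement, stood at 1.91 to 2.95 CPM in WT, 8.06 to 9.33 CPM in Dicer ΔMT/ΔMT and 15.1 to 17.2 CPM in Dicer SOM/SOM. It gave 2.67, 2.85 and 2.55 in Dicer SOM/SOM, RNAi and double mutants, and Rps23-ps1, which lies inside it, gave 2.68, 2.85 and 2.55. Without strand, reads of this pair cannot be assigned to either. Gm8624 was the single tested copy below 0 in the paired-end run. It rose by 1.28 in Dicer SOM/SOM but gave -0.33 (adjusted p = 0.71) in RNAi and -0.15 (adjusted p = 0.804) in double mutants.

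Rps6 with its 11 copies summed to 77 CPM in WT, 105 CPM in Dicer ΔMT/ΔMT and finally 138 CPM in Dicer SOM/SOM, and these sums gave 0.45 and 0.85. Paired-end sums were 81.8 CPM in controls, 134 in RNAi mutants and 133 in double mutants. Rps6-ps4 on chromosome 2, whose coding stretch is identical to that of Rps6, measured 20.6 to 21.8 CPM in WT and 36.5 to 39.4 CPM in Dicer SOM/SOM, with no overlap. All 11 copies were called higher in Dicer SOM/SOM and 8 in Dicer ΔMT/ΔMT, where 14.5% and 8.06% of all genes were. In the paired-end run 7 copies of Rps6 were tested. Of these, 2 were called higher in RNAi and 2 in double mutants, where 7.07% and 12.3% of all genes were.

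Rpl15, a core protein of the large subunit, was called higher with the SOM allele, and its value with the ΔMT allele was 0.07. It measured 28.7, 24.2 and 31.3 CPM in WT and 34.4, 33.1, 29.4 and 21.5 CPM in Dicer ΔMT/ΔMT, which overlapped. It measured 58.5, 60.5 and 53.7 CPM in Dicer SOM/SOM, above all other single-end libraries. The log2 fold change in Dicer SOM/SOM was 1.04 against WT (SE 0.17, adjusted p = 0.000935) and 0.96 against Dicer ΔMT/ΔMT (SE 0.15, adjusted p = 0.00414), and both calls were kept in every setting tried. With the counts of its 10 copies added, the values were smaller, at 0.73 and 0.53.

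Rpl15 was not called in the paired-end run, with 0.27 in RNAi mutants (adjusted p = 0.539) and 0.18 in double mutants (adjusted p = 0.565). Its controls measured 33.5, 34.3, 62.5 and 37.1 CPM, its RNAi mutants 52.2 and 48.4 CPM and its double mutants 43.6 to 52.1 CPM. Control replicate 2 lay above every mutant and the other 3 controls lay below all of them. Without control replicate 2 the values were 0.53 (adjusted p = 0.0328) and 0.45 (adjusted p = 0.0204), so that 1 library decided these calls.

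Rpl27a of the large subunit measured 8.38 to 9.11 CPM in WT and 13.2 to 13.4 CPM in Dicer SOM/SOM (0.60, SE 0.11, adjusted p = 0.00168). It was not called in the paired-end run, with 0.30 and 0.19 in RNAi and double mutants. With its 11 copies added, Rpl27a was also called there, at 0.93 (adjusted p = 0.0166) and 0.97 (adjusted p = 0.00237). The pseudogene Gm8451 on chromosome 1, 99.1% identical to the Rpl27a coding sequence, measured 4.01 to 6.56 CPM in controls and 4.71 in the piRNA mutant, but 23.2 and 20.2 in RNAi mutants and 22.7, 13.2, 37 and 21.6 in double mutants.

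Gm8451 gave log2 fold changes of 1.51 (SE 0.20, adjusted p = 0.000242) in Dicer SOM/SOM, 2.18 (SE 0.31, adjusted p = 0.000432) in RNAi and 2.30 (SE 0.28, adjusted p = 4.91e-05) in double mutants. The Rpl15 copy Gm8420 gave 1.84, 2.53 and 2.26 (adjusted p = 3.06e-05, 0.0136 and 0.00697) while its parent was called in the first of these alone. The Rps19 copy Rps19-ps3 gave 1.33, 1.88 and 3.36 (adjusted p = 0.000737, 0.0402 and 0.000152), whereas Rps19 gave 0.06, -0.07 and 0.03. In the paired-end controls Gm8420 stood at 0.083 to 0.353 CPM and Rps19-ps3 at 0.111 to 0.63 CPM. These levels are near the 3-count limit of at most 0.13 CPM, so the paired-end values of both copies rest on few reads. Over the family, Dicer SOM/SOM had 85 of 553 tested copies called higher and 10 lower, Dicer ΔMT/ΔMT had 38 and 1, and RNAi and double mutants had 15 and 18 of 319 higher with 0 lower. These shares of copies called higher (15.4%, 6.87%, 4.7% and 5.64%) lay near or below those of all genes in the same comparisons (14.5%, 8.06%, 7.07% and 12.3%). Gm8451, Gm8420 and Rps19-ps3 were chosen for display after their values were seen.

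**Figure D4:**
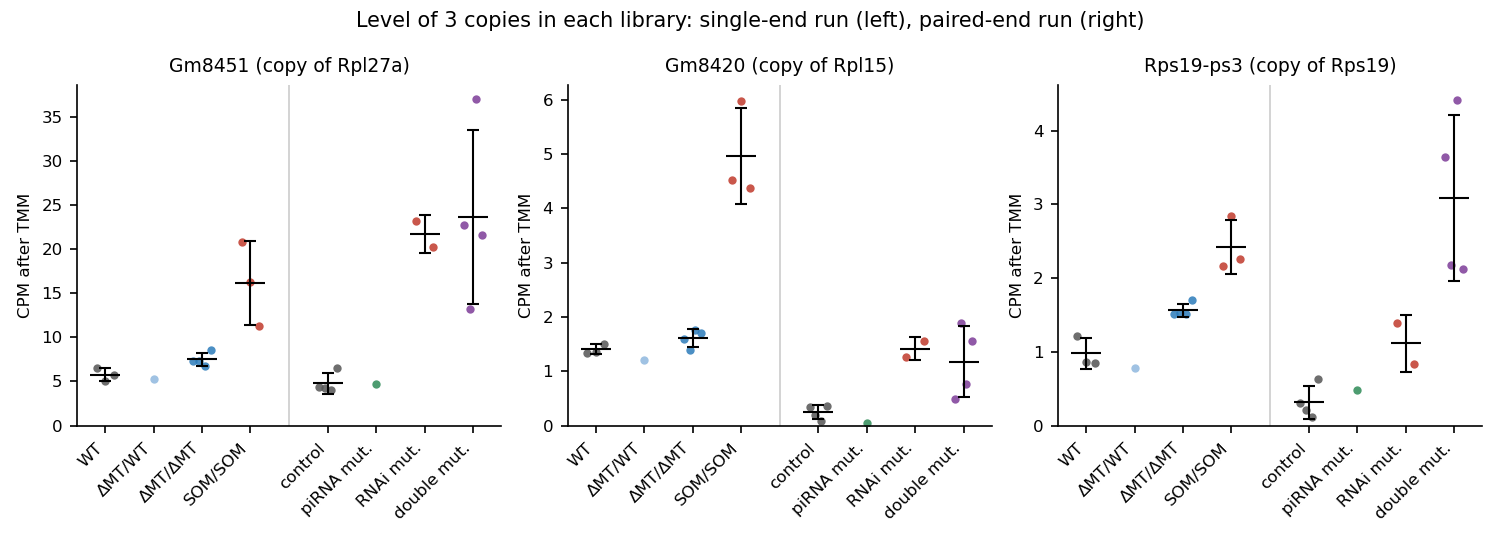
Level of the pseudogenes Gm8451 (copy of Rpl27a), Gm8420 (copy of Rpl15) and Rps19-ps3 (copy of Rps19) in CPM (y axis) in each library by group (x axis), with mean and SD of groups of at least 2 libraries. All 3 lie higher in Dicer SOM/SOM, RNAi and double mutant libraries than in WT or controls, and the piRNA mutant lies near or below the controls, with Gm8451 at 4.71 CPM.

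Rps15a, a small-subunit protein, was lower in Dicer SOM than in Dicer ΔMT homozygotes, with WT between them. It measured 18.7, 20.4 and 23.9 CPM in WT, 25.1, 28.7, 30.9 and 27.8 in Dicer ΔMT/ΔMT and 15.1, 17.4 and 12.9 in Dicer SOM/SOM. None of these groups overlapped. It was called higher in Dicer ΔMT/ΔMT (0.42, SE 0.13, adjusted p = 0.0465), lower in Dicer SOM/SOM (-0.45, SE 0.14, adjusted p = 0.0305) and lower between the mutants (-0.87, SE 0.13, adjusted p = 0.00304). The last call was kept in every setting, whereas both calls against WT were lost in 7 settings each. The fall was lost with the copies added (-0.37, adjusted p = 0.0643), with only the compared groups (adjusted p = 0.0796), with the block (adjusted p = 0.0565) and without WT replicate 2 or 3 or Dicer SOM/SOM replicate 1 or 3. The rise was lost without the filter, with the block and without WT replicate 1 or 2 or Dicer ΔMT/ΔMT replicate 2, 3 or 4. Paired-end levels of Rps15a were 24 to 41.5 CPM in controls, 40.7 and 34.1 CPM in RNAi mutants and 29.5 to 34.1 CPM in double mutants, with values of 0.20 and -0.08 that were not called.

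Other members also stood lower in Dicer SOM/SOM than in Dicer ΔMT/ΔMT. In that direct comparison 4 members were called higher and 4 lower, where 4.03% of all genes were called higher and 3.32% lower. The 4 higher were Rpl15, Rps23, Rps6 and Rpl27a (0.37, SE 0.10, adjusted p = 0.0464). Besides Rps15a, the lower were Rps13 of the small subunit, from 22.5 to 14.5 CPM (-0.62, SE 0.14, adjusted p = 0.0245), Rpl39l, from 12.7 to 9.24 CPM (-0.45, SE 0.11, adjusted p = 0.033), and Rpl6 of the large subunit, from 20.8 to 16.1 CPM (-0.37, SE 0.09, adjusted p = 0.0341). The calls of Rpl27a, Rpl39l and Rpl6 were lost without the filter on low counts, with only the compared groups fitted and with replicate numbers as a block, and that of Rps13 with the block (-0.58, adjusted p = 0.0812).

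The remaining rises in Dicer ΔMT/ΔMT were smaller than 1 log2 unit. Rplp1, an acidic protein of the stalk, measured 27.7, 27 and 31.1 CPM in WT and 36.8, 42.1, 51.1 and 39.9 CPM in Dicer ΔMT/ΔMT (0.57, SE 0.13, adjusted p = 0.0131), with no overlap. The call was lost when WT replicate 1 or 2 was left out. Rpl8, near the peptidyl transferase centre and without copies, rose from 13.9 ± 1.31 to 19.1 ± 2.7 CPM (0.46, SE 0.12, adjusted p = 0.0292). Rps2, at the mRNA entry site, gave 0.45 (adjusted p = 0.0279), Rpl23a at the exit tunnel 0.50 (adjusted p = 0.0353, groups overlapping) and Rpsa, also known as the laminin receptor, 0.41 (adjusted p = 0.0458). With replicate numbers as a block, 3 of the 9 calls were made, and those of Rpl23a, Rpl8, Rps15a, Rps18, Rps2 and Rpsa were lost.

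In Dicer SOM/SOM, Rps27l, a paralogue of Rps27, measured 13.7, 13.8 and 22.8 CPM against 8.19, 10.6 and 9.61 CPM in WT (0.78, SE 0.20, adjusted p = 0.013). Rpl12 at the base of the stalk measured 7.5, 6.67 and 12 CPM against 4.35 to 5.66 CPM (0.75, SE 0.21, adjusted p = 0.0202). In both, replicate 3, the shallowest library, was far above the other 2. Without it the values were 0.53 (adjusted p = 0.0203) and 0.51 (adjusted p = 0.0351). The call of Rps27l was lost without WT replicate 1 (0.68, adjusted p = 0.0525) and that of Rpl12 without WT replicate 2 or 3. Rpsa rose to 14.9, 12.2 and 17.6 CPM from 8.87 to 9.65 CPM (0.67, SE 0.13, adjusted p = 0.00334). Rps3, at the mRNA entry site and with no shared coding window, rose from 26 ± 3.42 to 35.2 ± 0.495 CPM (0.44, SE 0.11, adjusted p = 0.0137). The call of Rps3 was lost without WT replicate 1 or 2. Rpl8 gave 0.44 (adjusted p = 0.0304), and its call was lost without the filter (adjusted p = 0.0664), with the block (adjusted p = 0.062) and without WT replicate 1 or 2 or Dicer SOM/SOM replicate 1 or 2. The call of Rpsa was kept in every setting.

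Rpl38, a large-subunit protein known for the translation of Hox messages, was the member called lower in double mutants. It measured 18.1, 15.6, 27.8 and 13.8 CPM in controls, 15.5 in the piRNA mutant and 12, 12.6, 9.23 and 8 in double mutants, with no overlap. The log2 fold change was -0.85 (SE 0.22, adjusted p = 0.0147) and was kept in every setting. The RNAi mutants measured 10.9 and 10.7 CPM, below all controls, but were not called (-0.81, adjusted p = 0.0923). In the single-end run Rpl38 gave -0.11 and -0.31, neither of which was called.

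By subunit, 3 large and 6 small members were called higher in Dicer ΔMT/ΔMT and 8 of each in Dicer SOM/SOM, out of 51 and 32 tested. These were 5.9% and 18.8% in the first, beside 8.06% of all genes, and 15.7% and 25% in the second, beside 14.5%. The single fall in Dicer SOM/SOM was in the small and that in double mutants in the large subunit. The stalk genes Rplp0 and Rplp2 were not called in any comparison, with 0.27 and 0.23 in Dicer ΔMT/ΔMT. Among the paralogues, Rpl22l1 gave 0.57 (adjusted p = 0.13) and Rpl36al 0.03 in Dicer ΔMT/ΔMT. Rpl10l, the testis paralogue of Rpl10, measured 0.424 to 1.16 CPM in Dicer SOM/SOM and 0.172 to 0.534 CPM in WT (adjusted p = 0.238). The 3 most copied members, Rpl21, Rpl7a and Rpl29, gave -0.10, 0.23 and 0.66 in Dicer SOM/SOM and were not called, and Rpl29 was called with its copies added (0.78, adjusted p = 0.0218). That sum measured 72, 78.8 and 146 CPM in Dicer SOM/SOM, the highest in replicate 3, the shallowest library, against 52 to 61.4 CPM in WT.

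Of the 17 members with at least 10 copies, 5, 7, 2 and 2 were called higher in the 4 comparisons with controls, and 0 lower. Of the 61 with 1 to 9 copies, 3, 6, 0 and 0 were called higher and 0, 1, 0 and 1 lower. Of the 5 without a copy that were tested, 1, 3, 0 and 0 were called higher. The shares called higher were 29.4%, 41.2%, 11.8% and 11.8% at 10 or more copies and 4.9%, 9.8%, 0% and 0% at 1 to 9. For the 5 without a copy they were 20%, 60%, 0% and 0%, so the shares did not rise steadily with the number of copies. Among all genes 8.06%, 14.5%, 7.07% and 12.3% were called higher and 7.3%, 14.2%, 3.64% and 8.83% lower. Both paired-end calls at 10 or more copies were of Rps23 and Rps6, which are listed siRNA targets. The members with the highest level per kilobase moved little. Rpl4 measured 218 to 240 CPM in WT and 198 to 262 CPM in Dicer SOM/SOM and gave 0.05, 0.07, 0.02 and 0.17. Rpl41 gave -0.03, 0.06, -0.42 and -0.47 and Rpl10a 0.34, 0.20, 0.80 and 0.52, none of them called.

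Rpl10a came close in 3 comparisons, with adjusted p = 0.0508 in Dicer ΔMT/ΔMT, 0.0577 in RNAi and 0.0995 in double mutants. Its paired-end levels did not split by genotype alone. It measured 88.1, 50.2, 59.8 and 83.1 CPM in controls, 122 in both RNAi mutants and 121, 76.9, 129 and 76.7 in double mutants. The paired-end libraries fell into 6 with 4083 to 5500 CPM and 5 with 294 to 557 CPM of Gm42418, a gene that overlaps a ribosomal RNA repeat. The 6 were 2 controls (replicates 1o and 3), both RNAi mutants and 2 double mutants (1o and 1), and the 5 were the other controls, the other double mutants and the piRNA mutant.

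Rpl10a stood between 83.1 and 129 CPM in the 6 and between 50.2 and 76.9 CPM in the 5. Rps3 went the other way, at 22.5 to 37.8 CPM in the 6 and 43.2 to 70.7 CPM in the 5. Of 82 members at or above 1 CPM on average, 11 were higher in each of the 6 than in any of the 5 and 2, among them Rps3, were lower, where 2.28% and 2.68% of 14755 genes did so. The 11 included Rpl5, Rpl7a, Rpl13, Rpl21 and Rps18. Rps23 and Rps6 did not split that way, with mutants above controls on both sides. Rpl10a did split that way, and on each side its RNAi or double mutants also lay above its controls. With a term for this split, Rpl10a was called at 0.50 in RNAi mutants (adjusted p = 0.0181) and 0.51 in double mutants (adjusted p = 0.00143). Rpl10a was also called without that term in RNAi mutants with DESeq2 (0.79, adjusted p = 0.0252), without the filter (adjusted p = 0.00783), with only the compared groups (adjusted p = 0.0329), with the block (adjusted p = 0.0486), with its copy added (adjusted p = 0.0495) and without control replicate 1o (adjusted p = 0.041). In double mutants it was called without the filter (adjusted p = 0.0321) and with the block (adjusted p = 0.0484). With the term, 3 members were called higher in each comparison. In the single-end run Gm42418 measured 12869, 4795 and 17423 CPM in Dicer SOM/SOM and 5233 to 5822 CPM in WT, and its part in the results there was not tested.

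The 2 single libraries were placed by their values alone. In Dicer ΔMT/WT, 0 of 83 members lay at least 1 log2 unit from the WT mean and outside the WT range, a distance that 8.41% of all genes reached. The members ran from -0.59 (Rpl9) to 0.50 (Rpl10l) with a median of 0.00. In the piRNA mutant 1 member, Rpl10l, lay that far from the controls, at -2.42, where 8.29% of all genes did. It measured 0.0278 CPM, which is below the 3-count limit of 0.0835 CPM of that library, against 0.222 to 0.524 CPM in controls. The median of the members was -0.16 against -0.01 for all genes.

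Genes that work with the ribosomal proteins were read beside them. Of 17 other TOP messages 3 were called higher in Dicer ΔMT/ΔMT (Eef1b2, Tpt1 and Npm1), 5 in Dicer SOM/SOM and 1 in double mutants (Eef1g, 0.48), with 0 lower. These were 17.6%, 29.4% and 5.9% of the list, beside 8.06%, 14.5% and 12.3% of all genes. The poly(A)-binding protein gene Pabpc1 led in Dicer SOM/SOM, at 89.1 CPM (0.97, adjusted p = 0.00529). Of 28 ribosome assembly genes 2, 7, 0 and 2 were called higher in the 4 comparisons with controls and 0 lower. These were 7.1%, 25%, 0% and 7.1%, beside 8.06%, 14.5%, 7.07% and 12.3% of all genes. Called lower in these comparisons were 7.3%, 14.2%, 3.64% and 8.83% of all genes. Rrs1, needed for large-subunit assembly, gave 2.04 in Dicer SOM/SOM at a mean of 1.62 CPM. Rack1, a small-subunit protein outside the naming pattern, gave 0.48 there (adjusted p = 0.0445), while Fau was not called.

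Mitochondrial ribosomal protein genes, which serve a separate ribosome, were called in both directions, with 10 of 78 higher and 1 lower in Dicer ΔMT/ΔMT. In Dicer SOM/SOM 7 were higher and 3 lower, in RNAi mutants 1 was higher, and in double mutants 2 were higher and 1 was lower. The shares called higher were 12.8%, 9%, 1.3% and 2.6%, beside the same 4 shares of all genes. The shares called lower were 1.3%, 3.8%, 0% and 1.3%, beside 7.3%, 14.2%, 3.64% and 8.83% of all genes. Mrpl9 rose from 28.7 to 105 CPM in Dicer SOM/SOM (1.88), and gave 1.39 in RNAi and 1.27 in double mutants, all called. Mrps5 fell by 1.25 on the log2 scale in Dicer SOM/SOM and by 0.75 in double mutants. Of 9 regulators of TOP messages, 1, 2, 0 and 2 were called lower in the 4 comparisons with controls and 0, 1, 0 and 1 higher. The shares called lower were 11.1%, 22.2%, 0% and 22.2%, beside 7.3%, 14.2%, 3.64% and 8.83% of all genes. Those called higher were 0%, 11.1%, 0% and 11.1%, beside 8.06%, 14.5%, 7.07% and 12.3%. Mtor fell by 0.46 in Dicer ΔMT/ΔMT. Rps6kb1, the S6 kinase gene, fell by 0.63 in Dicer SOM/SOM and by 0.66 in double mutants. Larp4 fell by 0.67 and 0.54 there, and Akt1s1 rose by 0.58 and 0.63.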

How the data were processed

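The authors mapped reads to mm10 with STAR (2.5.3a) and counted them per gene of GENCODE M15 with featureCounts, without strand and with reads that map to several places counted as fractions at each. The deposited tables hold these estimated counts and gene lengths, and the repeat table was not used. Here the counts were rounded and fitted with edgeR 4.0.16 (R 4.3.3, limma 3.58.1), using TMM, filterByExpr (minimum count 10, minimum total 15) and the quasi-likelihood test. Each run was fitted apart, the 3 single-end groups together without Dicer ΔMT/WT, and all 11 paired-end libraries together. DESeq2 1.42.0, other scaling, filters, blocks and left-out libraries were alternatives. CPM are after TMM. Symbols and gene types came from GENCODE M21 (GRCm38), where 147 genes of the table were not matched. Copies and shared windows (50 and 75 bases) came from blastn 2.17.0 and Python 3.11.15 on the same GENCODE M21. Copies were defined on coding sequence after whole transcripts had been seen to miss them. Genes named in the text were the 5 largest called rises and falls per comparison at 1 CPM or more, the siRNA targets, paralogues, stalk genes, and the 3 members with the highest level per kb and the 3 with the most copies. Other called members, Rps3 and copies were added after their values were seen. The members and lists were chosen with earlier results of these data known. The fit was tested on simulated data with 200 changed genes, of which 185 to 200 were recovered per comparison. Unchanged genes made up 10.2% of the simulated calls for RNAi mutants and 8.33% for double mutants against controls. In the other comparisons they made up 4.1% to 4.83%. Replicates differed by 12.2 to 101 times counting error. A few genes are not reported here by name.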

Additional observations from a re-analysis of the deposited data

Results flagged for a closer look

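Among 87 pairs of a named member and a group of 4 libraries, 7 had 1 library far from the other 3, and chance gives about 1 in 20. Control replicate 2 gave 3 of them: Rpl15 at 62.5 CPM (nearest library 37.1), Rps6 at 66.1 CPM (nearest 50.5) and Rpl39l at 8.98 CPM (nearest 7.49). Dicer ΔMT/ΔMT gave 3 more, with Rpl27a at 9.36 CPM in replicate 1 (nearest 10.5), Rps27l at 15 CPM in replicate 3 (nearest 12.5) and Rpl6 at 22.4 CPM in replicate 4 (nearest 20.4). Rps15a stood at 34.1 CPM in double mutant replicate 1o (nearest 29.9).

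In 4 members the 2 homozygous Dicer mutants of the single-end run lay on opposite sides of WT and differed from each other by edgeR's quasi-likelihood test. The difference, Dicer SOM/SOM against Dicer ΔMT/ΔMT, was -0.87 for Rps15a (0.42 and -0.45 against WT, the ΔMT homozygotes first), -0.62 for Rps13 (0.41 and -0.21), -0.45 for Rpl39l (0.16 and -0.29) and -0.37 for Rpl6 (0.19 and -0.17). Of these 4, Rps15a was called against WT in both mutants, and each of these calls was lost in 7 settings.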

How the results depend on the processing

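Over the 5 comparisons with calls, members gave 39 called results. Of these 14 kept their call in every setting and 0 changed direction. Counts of called members, and of all genes, moved with the setting. In Dicer ΔMT/ΔMT against WT 9 became 4 without the filter on low counts, 19 with only the compared groups fitted and 3 with replicate numbers as a block, while 8.06% of all genes called higher became 4.12%, 11.7% and 5.97%. In Dicer SOM/SOM 17 became 11 without the filter and 9 with only the compared groups, while 14.5% became 7.89% and 11.4%. Between the mutants 8 became 5, 5 and, with the block, 4. In RNAi mutants 2 became 4 with DESeq2, 4 with copies added and 1 at 10 to 17 weeks, and in double mutants 3 became 5 without the filter and 5 with the block. Same-numbered libraries deviated together weakly or not at all (r from -0.069 to 0.177), and the block was an alternative to the main fit. The highest r were between double mutants and controls, at 0.177 (replicate 2) and 0.135 (replicate 1o). In the paired-end run same-numbered libraries also lay on the same side of the Gm42418 split, except RNAi mutant replicate 2. Whether a replicate number marks a shared batch was not tested. Leaving out 1 library gave 2 to 13 calls in Dicer ΔMT/ΔMT (medians 0.16 to 0.25), 6 to 17 in Dicer SOM/SOM (0.10 to 0.22), 4 to 7 between these (-0.04 to 0.02), 1 to 5 in RNAi mutants (0.06 to 0.29), 3 to 7 in double mutants (-0.09 to 0.12) and 0 to 0 between double and RNAi mutants (-0.26 to -0.02). The count fell to 2 without WT replicate 1 or 2, to 4, 5 and 3 without Dicer ΔMT/ΔMT replicates 2, 3 and 4, and, in Dicer SOM/SOM, to 9 and 6 without WT replicates 1 and 2. Between the mutants it fell to 4 without Dicer ΔMT/ΔMT replicate 2, 3 or 4 and to 5 without Dicer SOM/SOM replicate 1. Without control replicate 2 it rose to 5 in RNAi and 7 in double mutants, and without RNAi mutant replicate 1 it fell to 1. The highest share of counts, with copies, was 0.686% in the single-end and 0.541% in the paired-end run. Values near the 3-count limit, such as Rpl10l, rest on few reads.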
